A study of Mus musculus with 8 samples.

Results

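The 34 genes described here make, move or break down cholesterol, or make fatty acids. They were chosen by name, with the list drawn up when earlier results of these data were known, and all 34 had a row among the 19583 entries of the table. RNA came from the olfactory bulbs of mice at postnatal day 30, with 4 libraries per group. The double mutants carried hGFAP-Cre with Sp8 Flox/Flox and Sp9 Flox/Flox alleles, and the controls were wild-type littermates, with C57BL/6J, 129S6 and CD1 mixed in the background of all mice. The human GFAP promoter drives Cre in astrocytes and in radial glia, from which the brain is built, so recombination reaches glia as well as the neurons that descend from radial glia. Cre and floxed alleles are given for the mutant group alone, so that effects of the transgene and of the loss of Sp8 and Sp9 cannot be told apart. Each library also has a letter, A or B for double mutants and C or D for wild type, with 2 libraries per letter. Whether a letter stands for an animal or a pool is not given, so p-values measure the spread between libraries, which may in part be technical.

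Brain cholesterol is made locally, because lipoproteins of the blood do not cross the vessel wall of the brain. It starts from acetyl-CoA, runs through mevalonate and squalene, and ends in cholesterol after the sterol rings have been trimmed and reduced. SREBP transcription factors, which are encoded by Srebf1 and Srebf2, switch on these enzymes and those of fatty acid synthesis when membranes lack sterol. In the mature brain, astrocytes load cholesterol onto apolipoprotein E for neurons, and oligodendrocytes use much of it for myelin. Neurons hydroxylate surplus cholesterol so that it can leave the brain.

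Levels are in FPKM, the fragments of a gene scaled to its transcript length and to the mapped fragments of the library, which allows levels of different genes to be compared per length. Estimated depth lay between 11888711 and 19040802 fragments per library. Sp8 measured 7.27 ± 0.82 FPKM in double mutants against 30.5 ± 1.0 FPKM in wild type, and Sp9 measured 6.74 ± 0.53 and 24.1 ± 0.9 FPKM (SD, n = 4 per group). The X-inactivation RNA Xist, which is made in females, measured 76.8 to 115 FPKM in the libraries of letters A, C and D and at most 0.0538 FPKM in those of letter B, which therefore stood apart. Libraries nearly without Xist thus occurred among the double mutants alone. The comparison of the groups was not adjusted for this difference, and results without letter B are given for several genes below.

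All 34 genes passed the filter, a mean of 0.5 FPKM or more over the libraries. In the double mutant bulb, the 6 fatty acid genes among the 34 rose together. The cholesterol enzymes rose by small amounts or did not pass the test. Genes of cholesterol transport and turnover split in both directions, as did all tested genes. In bulk tissue such as this, fewer cells of a type and less RNA per cell cannot be told apart. The largest rises were those of the desaturase gene Scd1 and of Srebf1, both more than 2-fold, and the largest fall was that of Lrp8, a receptor for apolipoprotein E and reelin, to 42.9% of its wild-type mean. Of the 34 genes, limma called 19 higher and 5 lower at an adjusted p below 0.05, and 10 did not pass. Over all 14349 genes tested, 28.8% were called higher and 36.5% lower. The lipid genes thus had a share of higher calls (55.9%) above that background and a share of lower calls (14.7%) below it. Under upper quartile scaling of the libraries the background turned to 34.5% higher and 28.1% lower, while these genes split into 24 higher and 3 lower. The median log2 fold change was 0.17 for these genes and -0.04 for all tested genes. Without letter A, 20 genes were called higher and 3 lower, and without letter B, 18 and 6. The groups did not overlap in any value for 19 of the higher and 4 of the lower genes, against 25.7% and 33.4% of all tested genes.

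**Figure D1:**
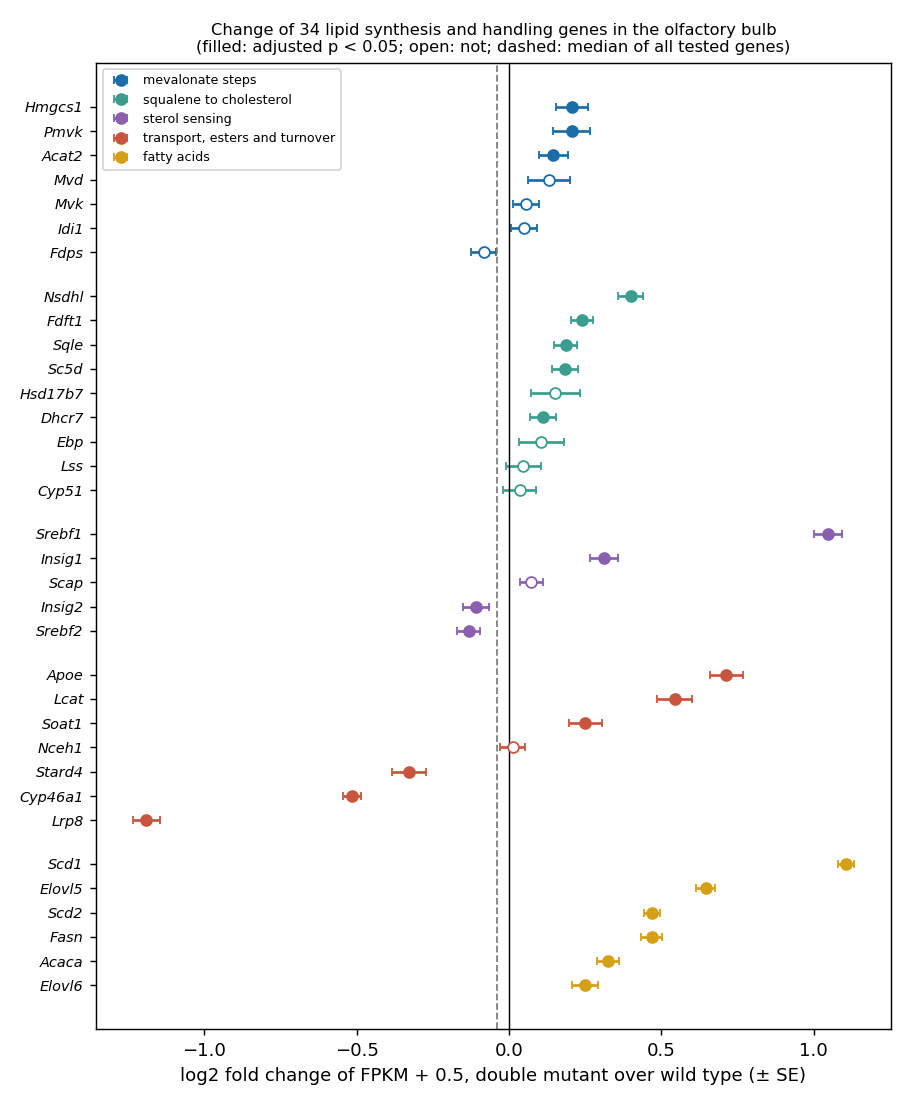
The x axis gives the log2 fold change of FPKM + 0.5, double mutant over wild type, with its standard error, and the genes are grouped by role on the y axis. Filled points passed the test, open points did not, and the dashed line marks the median of all tested genes at -0.04. All 6 fatty acid genes lie to the right, and the transport and turnover genes spread from -1.19 to 0.71.

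**Figure D2:**
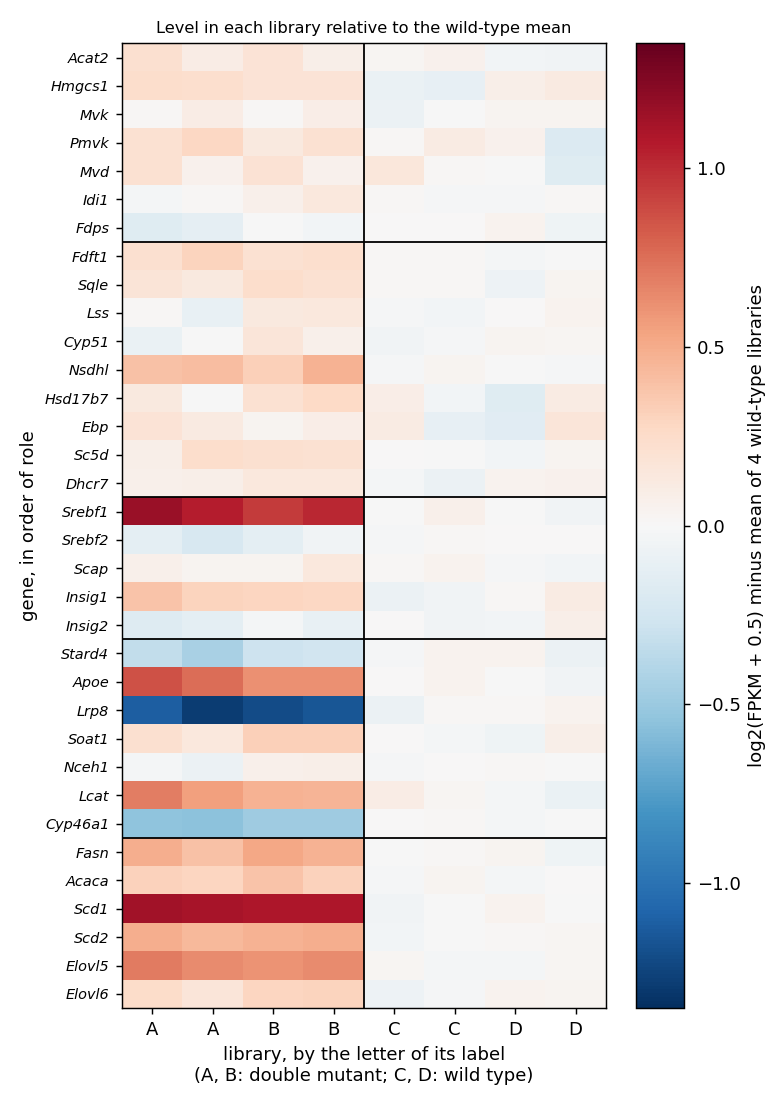
Each column is a library, named by its letter, and each row a gene, in order of role. The colour gives log2(FPKM + 0.5) minus the mean of the 4 wild-type libraries. Scd1 and Srebf1 are red and Lrp8 and Cyp46a1 blue in all 4 double mutant libraries, while most cholesterol enzymes are pale.

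Promoter windows were listed by RefSeq on GRCm38.p6 for 28 of the 34 genes, in 40 windows. None was listed for Scd1, Scd2, Fdft1, Fdps, Sqle and Stard4, so the shares below leave these genes out. Each window holds 250 bases before and 50 bases after a transcript start. They were searched on both strands for the core of the sterol response element, TCACNCCAC, to which SREBP factors bind, for the GC box GGGCGG, a site class bound by Sp family factors, and for the CCAAT box CCAAT, which binds the factor NF-Y, a partner of SREBP. No 2 different motifs overlapped in these windows. The sterol core was found in 1 of the 40 windows (2.5%) and in 1.24% of all 32851 windows listed. A GC box was in 57.5% of these windows and in 35.7% of all windows, and a CCAAT box was in 57.5% and 37.4%. These shares describe the windows and are not a test.

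The window with the sterol core belongs to Hmgcs1, where the core spans positions -137 to -129 from the start. Its 150 bases before the start (chr13:119690201-119690350, plus strand) are shown with those of Fasn (chr11:120824548-120824697, minus strand) and Srebf1 (chr11:60222582-60222731, minus strand), since these are the mevalonate, fatty acid and sterol-sensing genes with the largest change among those whose stretch has a listed window and lies off annotated exons. Srebf1 has other annotated starts, and the most upstream one is shown. Sequences run 5′ to 3′ on the strand of the gene, from RefSeq on GRCm38.p6. Capitals mark the sterol core, GC boxes and CCAAT boxes on either strand.

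Hmgcs1: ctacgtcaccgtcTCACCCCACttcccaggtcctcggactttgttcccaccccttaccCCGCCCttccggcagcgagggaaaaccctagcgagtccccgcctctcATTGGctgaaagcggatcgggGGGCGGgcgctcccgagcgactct

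Fasn: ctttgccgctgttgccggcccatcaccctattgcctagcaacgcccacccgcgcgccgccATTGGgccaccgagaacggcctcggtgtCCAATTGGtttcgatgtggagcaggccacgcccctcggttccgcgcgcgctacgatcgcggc

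Srebf1: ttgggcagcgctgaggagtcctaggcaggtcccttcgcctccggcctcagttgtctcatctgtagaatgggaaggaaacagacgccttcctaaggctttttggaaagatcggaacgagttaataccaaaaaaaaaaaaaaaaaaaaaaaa

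In these stretches Hmgcs1 holds 1 sterol core, 2 GC boxes and 1 CCAAT box. Fasn holds 3 CCAAT boxes, of which a pair overlap on opposite strands. Srebf1 holds no match to any of the 3 motifs in its stretch. Its window has a CCAAT box just upstream of the stretch, at -166 to -162, and windows at its other starts hold GC boxes and a CCAAT box.

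Among the 7 genes of the mevalonate steps, 3 rose, none fell and 4 did not pass. Higher calls thus made up 42.9%, against 28.8% of all tested genes. Hmgcs1 (chromosome 13, 119690379 to 119708260, plus strand) makes HMG-CoA, the precursor of mevalonate. It measured 87.6, 87.0, 84.7 and 84.5 FPKM in replicates 1 to 4 of the double mutants, against 69.6, 69.0, 78.7 and 80.8 FPKM in those of the wild type. Every double mutant value was above every wild-type value, and the wild-type libraries of letter C were lower than those of letter D. The log2 fold change was 0.21 ± 0.05 (SE, with an adjusted p from limma of 0.00464), and 0.11 without letter C, where it still passed.

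Pmvk, the phosphomevalonate kinase gene, rose by 0.21 from 27.4 ± 2.4 to 31.6 ± 1.3 FPKM (SD, n = 4) but did not pass without letter A (limma adjusted p = 0.0901). Acat2, the gene of the cytosolic acetoacetyl-CoA thiolase that opens the pathway, rose by 0.15, from 7.72 ± 0.28 to 8.60 ± 0.41 FPKM. That call was lost on the means of the letters (adjusted p = 0.0911), without letter A or D (0.072 and 0.169), and without double mutant replicate 1 or 3 or wild-type replicate 3 or 4 (0.0530 to 0.0591). Of the 50-base words in Acat2 transcripts, 39.1% also occur in other genes, mostly in its paralog Acat3, which measured 12.4 ± 0.9 and 13.6 ± 0.8 FPKM, so the split of reads between them is uncertain.

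The kinase gene Mvk and the decarboxylase gene Mvd measured 11.0 ± 0.4 and 10.2 ± 0.6 FPKM in double mutants against 10.6 ± 0.4 and 9.31 ± 0.90 FPKM in wild type (SD, n = 4) and did not pass. Both passed under upper quartile scaling (limma adjusted p = 0.0187 and 0.0371). Mvk also passed under quantile normalization, and Mvd without letter C (0.22, adjusted p = 0.0333) or wild-type replicate 1 (0.0314). The isomerase gene Idi1 had values of 18.3, 18.8, 19.6 and 20.7 FPKM in double mutants, against 18.8, 18.5, 18.5 and 18.8 FPKM in the wild type. Only its letter B libraries lay above all wild-type values. Its change of 0.05 did not pass, but it was 0.11 and passed without letter A (adjusted p = 0.0418). Idi1 also passed under upper quartile scaling (0.12, adjusted p = 0.0105) and under quantile normalization.

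Fdps, which makes farnesyl pyrophosphate, the branch point toward sterols and prenylated proteins, was the only member of these 7 with a negative estimate, -0.08 ± 0.04 (SE, limma adjusted p = 0.1). It measured 29.5, 30.3, 32.9 and 32.1 FPKM in double mutants, against 33.1, 33.1, 34.2 and 31.8 FPKM in the wild type. Here the letter A libraries lay below all wild-type values and those of letter B among them. The change passed without letter B (-0.14, adjusted p = 0.0142) and without double mutant replicate 3 (-0.11, adjusted p = 0.0431). Transcripts of Idi1 and Fdps share 25.3% and 26.2% of their 50-base words with other genes, and Hmgcs1 shares 11.6%.

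Of the 9 genes from squalene to cholesterol, 5 rose (55.6%, against 28.8% of all tested genes), none fell and 4 did not pass. Nsdhl, on the X chromosome (72918557 to 72958514, plus strand), removes the methyl groups at carbon C-4 of the sterol rings together with other enzymes. It measured 14.5, 14.7, 13.7 and 15.3 FPKM in double mutants, against 10.8, 11.2, 10.9 and 10.8 FPKM in the wild type. The groups were far apart and letters A and B overlapped. Its log2 fold change of 0.40 ± 0.04 (SE, with an adjusted p from limma of 1.19e-05) was the largest of the cholesterol enzymes and was 0.41 without letter B, the letter nearly without Xist.

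Fdft1, which joins farnesyl units into squalene, rose by 0.24 from 13.5 ± 0.2 to 16.0 ± 0.5 FPKM (SD, n = 4). Its exons overlap those of the protease gene Ctsb on the opposite strand by 774 bases. Ctsb itself rose by 0.19, to 85.9 ± 2.8 FPKM, and since no strand setting is stated, fragments from the overlap could belong to either gene. Sqle, the squalene epoxidase and a rate-limiting step, measured 20.4, 19.9, 21.4 and 20.9 FPKM in double mutants, against 18.4, 18.3, 17.3 and 18.5 FPKM in the wild type. No value overlapped, and the change was 0.19 ± 0.04 (limma adjusted p = 0.00141). Sc5d, which places the C-5 double bond, rose by 0.18. Dhcr7, the final reductase of one branch, rose by 0.11, from 12.3 ± 0.6 to 13.3 ± 0.4 FPKM. That call was lost under 10 of 24 alternatives, among them the means of the letters (adjusted p = 0.177) and without letter B (0.08, adjusted p = 0.239) or C (0.06, adjusted p = 0.347), without double mutant replicate 2, 3 or 4 and without wild-type replicate 1 or 2 (0.0542 to 0.129).

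The 4 genes of this stretch that did not pass were Lss, Cyp51, Hsd17b7 and Ebp. Lss closes squalene epoxide into lanosterol. It measured 11.6, 10.6, 12.6 and 12.7 FPKM in double mutants, against 11.3, 11.1, 11.5 and 11.8 FPKM in the wild type. Letter B lay above every wild-type value and letter A did not. Cyp51, the lanosterol demethylase, showed the same order, with a mean of 12.2 FPKM in letter A, 13.7 FPKM in letter B and 12.6 FPKM in wild type. The fold changes of Lss and Cyp51 were 0.05 ± 0.06 and 0.03 ± 0.06 (SE) and turned to -0.04 and -0.05 without letter B. Without letter A, Lss was at 0.14 and passed (limma adjusted p = 0.0269). Hsd17b7, the sterol ketoreductase, measured 4.93 ± 0.43 and 4.39 ± 0.42 FPKM (SD, n = 4). It passed under upper quartile scaling (0.22, limma adjusted p = 0.0277) and on the scaled signal deposited beside FPKM. Hsd17b7 also passed without letter A (0.24, 0.0463) or double mutant replicate 2 (0.20, 0.0449). Ebp, the sterol isomerase gene on the X chromosome, measured 8.63 ± 0.38 and 8.01 ± 0.93 FPKM. Ebp rested on an estimated 145 to 269 fragments per library, near the lowest of the 34 genes, which limits what can be seen of it. Exons of Lss and Cyp51 overlap genes on the opposite strand by 381 and 166 bases.

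In the SREBP control loop, 2 genes rose and 2 fell of 5. At 40% each, the shares lay near the 28.8% and 36.5% of all tested genes. Srebf1 (chromosome 11, 60199089 to 60222581, minus strand) encodes SREBP-1, which acts mostly on fatty acid genes. It measured 56.9, 52.5, 48.7 and 51.0 FPKM in double mutants, against 24.9, 26.2, 24.8 and 24.2 FPKM in wild type. The double mutant level was 209% of wild type in the mean, and no value came near the other group. The log2 fold change was 1.05 ± 0.05 (SE, with an adjusted p from limma of 2.95e-08), and 0.98 without letter A and 1.11 without letter B. Its exons overlap those of Rai1 on the opposite strand by 109 bases.

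Srebf2 encodes SREBP-2, which acts mostly on cholesterol genes. Its values were 42.9, 40.5, 43.0 and 45.7 FPKM in double mutants, against 46.5, 47.7, 47.3 and 47.2 FPKM in the wild type. It fell by 0.13 on the log2 scale (SE 0.04, limma adjusted p = 0.00921). The groups did not overlap, but the call was lost under upper quartile scaling (-0.06, adjusted p = 0.116), quantile normalization (-0.04, adjusted p = 0.324), on the means of the letters (adjusted p = 0.0586) and without letter A or D (0.0536 and 0.0567). The ratio of Srebf1 to Srebf2 within a library does not depend on its scaling. That ratio was 1.33, 1.30, 1.13 and 1.12 in double mutants and 0.535, 0.550, 0.526 and 0.512 in wild type, so that Srebf1 lay above Srebf2 in all 4 double mutant libraries and below it in all 4 wild-type libraries. The ratio was formed after the values had been seen and was not tested.

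The retention proteins of the loop hold the SREBP complex in the endoplasmic reticulum when sterol is plentiful. Insig1, itself a target of SREBP, measured 21.1, 19.8, 19.7 and 19.6 FPKM in double mutants, against 15.2, 15.5, 16.2 and 17.4 FPKM in the wild type. All double mutant libraries were higher, and the change was 0.31 ± 0.05 (SE, limma adjusted p = 0.000183). Insig2 measured 22.5 ± 1.0 and 24.3 ± 1.0 FPKM (SD, n = 4) with overlapping groups. It fell by 0.11 (adjusted p = 0.0433), a call that was lost under 18 of 24 alternatives, where the change reached -0.01 under quantile normalization (adjusted p = 0.84). They include the replicate block (adjusted p = 0.056), the absence of letter A, C or D, and the absence of any single library other than double mutant replicate 3 and wild-type replicate 2. Scap, which escorts SREBP to the Golgi, measured 23.5 ± 0.9 and 22.3 ± 0.6 FPKM, and its change of 0.07 did not pass. It passed under 4 of 24 alternatives, namely upper quartile scaling (0.15, limma adjusted p = 0.00416), trimmed mean scaling, quantile normalization and the scaled signal deposited beside FPKM. Of the 50-base words in Scap transcripts, 9.96% also occur in another gene, 5830462I19Rik.

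Of the 7 genes of transport, esterification and turnover, 3 rose, 3 fell and 1 did not pass. These shares (42.9% higher and 42.9% lower) were not far from those of all tested genes (28.8% and 36.5%). Apoe (chromosome 7, 19696109 to 19699188, minus strand), the apolipoprotein of brain lipoprotein particles and a product of astrocytes and microglia, ranked first of all genes in every library. It measured 6317, 5877, 5324 and 5321 FPKM in double mutants, against 3477, 3596, 3465 and 3361 FPKM in the wild type. Its share of all FPKM was 1.53% to 1.84% in double mutants and 0.953% to 1.02% in wild type, and letter A was higher than letter B. The log2 fold change was 0.71 ± 0.05 (SE, with an adjusted p from limma of 1.11e-06). Quantile normalization gives the first rank the same value in every library and thus returns 0.00 by construction. The 8 astrocyte markers examined also rose (median 0.64), and microglia markers rose in 5 of 6 cases (median 0.51). Markers of most other cell types listed below rose as well, while those of myelin split and the 6 of bulb interneurons fell. The part of these shifts in the result was not tested.

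Lcat, the enzyme that esterifies cholesterol on lipoprotein particles, followed Apoe in the order of its letters. It measured 62.8, 56.9, 53.8 and 53.3 FPKM in double mutants, against 41.4, 39.3, 37.9 and 36.2 FPKM in the wild type, with a change of 0.54 ± 0.06 (SE, limma adjusted p = 1.23e-05). Soat1, which esterifies cholesterol inside cells for storage, rose by 0.25, from 7.48 ± 0.31 to 8.996 ± 0.59 FPKM (SD, n = 4). Nceh1, which hydrolyses stored esters, measured 19.8 ± 1.1 and 19.6 ± 0.2 FPKM and did not pass (0.01 ± 0.04, adjusted p = 0.816). Its change was -0.05 without letter B, and 0.09 and past the test under quantile normalization (adjusted p = 0.0397). The ratio of Soat1 to Nceh1 was 0.446 to 0.462 in double mutants and 0.362 to 0.404 in wild type, without overlap.

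Lrp8 (chromosome 4, 107802261 to 107876840, plus strand), the receptor named above, had the largest fall of the 34 genes. Its values were 12.8, 11.3, 11.9 and 12.4 FPKM in double mutants, against 26.8, 28.7, 28.6 and 29.2 FPKM in wild type. The double mutant libraries lay close together and all far below wild type, as did the 6 markers of bulb interneurons (median -1.40), whose part in the result was not tested. Lrp8 had a log2 fold change of -1.19 ± 0.04 (SE, with an adjusted p from limma of 9.2e-09). Cyp46a1 (chromosome 12, 108334381 to 108362234, plus strand), the neuronal enzyme that makes 24-hydroxycholesterol for export, measured 39.1, 38.9, 40.8 and 40.8 FPKM in double mutants, against 57.5, 57.9, 56.2 and 57.1 FPKM in the wild type. It fell to 69.8% of its wild-type mean, with a change of -0.51 ± 0.03 (adjusted p = 1.39e-07). Stard4, a carrier of cholesterol between membranes and itself a target of SREBP, went against Insig1 and Hmgcs1. It measured 5.08, 4.69, 5.30 and 5.40 FPKM in double mutants, against 6.45, 6.78, 6.78 and 6.19 FPKM in the wild type and fell by 0.33 (SE 0.06, adjusted p = 0.000454).

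All 6 fatty acid genes rose, none of their values overlapped between the groups, and no alternative ended a call. Over all tested genes, 28.8% were called higher, and 25.7% were higher without overlap. Acaca, which makes malonyl-CoA, rose from 13.7 ± 0.2 to 17.3 ± 0.5 FPKM (SD, n = 4), a change of 0.33, and 30.4% of its 50-base words also occur in other genes. Fasn, the fatty acid synthase that builds palmitate from it, measured 64.5, 60.5, 66.2 and 63.5 FPKM in double mutants, against 45.8, 46.4, 47.1 and 44.1 FPKM in the wild type. Its log2 fold change was 0.47 ± 0.04 (SE, with an adjusted p from limma of 1.07e-06). The 2 genes thus stood at 126% and 139% of wild type.

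The desaturases introduce the first double bond into saturated fatty acids. Scd1 (chromosome 19, 44394455 to 44407879, minus strand) measured 188, 186, 184 and 183 FPKM in double mutants, against 83.1, 85.5, 88.8 and 85.7 FPKM in the wild type. It was 216% of wild type, the largest rise of the 34 genes, with a log2 fold change of 1.11 ± 0.03 (SE, with an adjusted p from limma of 1.33e-09). Scd2, its neighbour on the chromosome and the main desaturase of the developing brain, measured 529, 511, 520 and 528 FPKM in double mutants, against 367, 376, 381 and 383 FPKM in the wild type. Scd2 thus stayed the more abundant of the pair while it rose less, by 0.47 ± 0.03 (adjusted p = 1.03e-07). Within a library, the ratio of Scd1 to Scd2 was 0.347 to 0.363 in double mutants and 0.224 to 0.233 in wild type. They share 4.56% and 3.97% of their 50-base words with other genes, among them each other and Scd3.

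Elongases add carbon pairs to existing chains. Elovl5 (chromosome 9, 77917364 to 77984519, plus strand), which acts on polyunsaturated chains, measured 90.8, 87.0, 85.4 and 87.2 FPKM in double mutants, against 56.9, 54.7, 54.8 and 57.0 FPKM in the wild type. It reached 157% of wild type, with a log2 fold change of 0.65 ± 0.03 (SE, with an adjusted p from limma of 3.72e-08). Elovl6, which acts on saturated chains made by Fasn, rose by 0.25, from 18.3 ± 0.7 to 21.9 ± 0.9 FPKM (SD, n = 4).

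**Figure D3:**
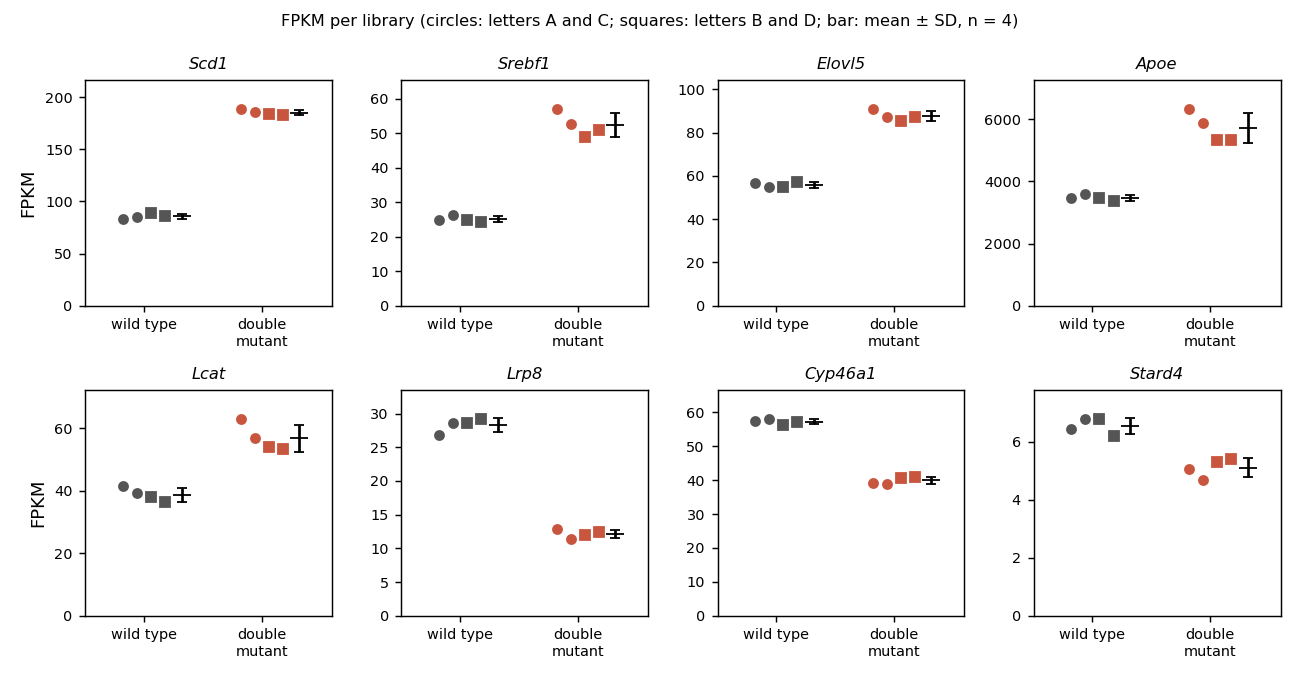
FPKM is on the y axis from 0 and the groups are on the x axis, with a point per library, circles for letters A and C, squares for letters B and D, and the mean ± SD of 4 libraries beside them. Scd1, Srebf1, Elovl5, Apoe and Lcat are higher in all 4 double mutant libraries than in the wild type, and Lrp8, Cyp46a1 and Stard4 are lower.

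Summed per role, the 6 fatty acid genes came to 898 ± 12 FPKM in double mutants, against 596 ± 9 FPKM in the wild type (SD, n = 4). The 9 genes from squalene to cholesterol came to 120.2 ± 2.9 and 106 ± 2 FPKM and the 7 mevalonate genes to 198 ± 1 and 181 ± 5 FPKM. Median log2 fold changes were 0.47 for fatty acids, 0.15 from squalene to cholesterol, 0.13 for the mevalonate steps, 0.07 for the control loop and 0.01 for transport and turnover. By these medians the fatty acid genes rose more than the cholesterol enzymes, a difference that was not tested. Single genes overlapped, as the cholesterol enzymes ranged from -0.08 (Fdps) to 0.40 (Nsdhl). Nsdhl rose more than the fatty acid genes Acaca (0.33) and Elovl6 (0.25).

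A further list of 38 genes of these pathways was set beside them, of which Sc4mol stands for the current symbol Msmo1. Of 36 tested, 25 rose, 7 fell and 4 did not pass, with a median log2 fold change of 0.29. Higher and lower calls thus made up 69.4% and 19.4%, against 28.8% and 36.5% of all tested genes, whose median was -0.04. Those with a rise of at least 0.5 included genes of fatty acid modification and of cholesterol handling. The fatty acid desaturase genes Fads2 and Fads1, which make polyunsaturated chains, rose by 0.73 and 0.55, and Fads2 had the highest level of this list, 197 ± 6 against 118 ± 4 FPKM (SD, n = 4). Scd3 and Elovl1 rose by 0.60 and 0.61. The efflux pump gene Abca1 rose by 0.59, and the ubiquitin ligase gene Mylip by 0.52. The lysosomal cholesterol carrier gene Npc2 rose by 0.53 and the cholesterol 25-hydroxylase gene Ch25h by 0.63.

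Genes of this list that fell or did not pass are named here after their values were seen. Acly, Acss2, Acacb and Lpl did not pass, with changes of -0.03, 0.12, 0.21 and 0.17 (limma adjusted p = 0.556, 0.0732, 0.0589 and 0.529). The efflux pump genes Abcg1 and Abcg4 fell by 0.25 and 0.27, Mbtps2 and Mbtps1, the proteases that cut SREBP, by 0.26 and 0.09, the elongase gene Elovl4 by 0.21 and Ggps1, which makes geranylgeranyl groups, by 0.20. The call of Mbtps1 was lost under 16 of 24 alternatives, among them upper quartile scaling (-0.01, limma adjusted p = 0.695), the replicate block (0.0524), the letter as a random block (0.0584), the means of the letters (0.159), the absence of any 1 letter (0.0553 to 0.150), and the absence of double mutant replicate 1 or 3 or wild-type replicate 1, 2 or 4 (0.0504 to 0.0721). That of Ggps1 was lost under upper quartile scaling (-0.13, adjusted p = 0.0642), quantile normalization (0.0530), on the means of the letters (0.0691) and without letter A (-0.10, 0.141), C (0.0705) or D (0.0637). That of Ch25h was lost without letter A (0.40, adjusted p = 0.0532).

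Cell type markers moved in the same libraries, in which 28.8% of all tested genes were called higher and 36.5% lower. All 8 astrocyte markers rose, with a median log2 fold change of 0.64 and a summed level of 1353 to 1398 FPKM in double mutants against 904 to 1003 FPKM in wild type. All 6 markers of bulb interneurons fell, with a median of -1.40 and a summed level of 384 to 448 FPKM against 1077 to 1103 FPKM. Of the 10 oligodendrocyte and myelin markers, 2 rose, 2 fell and 6 did not pass, with summed levels of 1692 to 2142 FPKM and 1626 to 1762 FPKM. None of these 10 fell without letter A and 4 fell without letter B. Of 6 microglia markers 5 rose (median 0.51, summed levels of 112 to 125 FPKM and 78.1 to 86.1 FPKM), and all 6 markers of projection neurons rose (median 0.77, 805 to 875 FPKM and 541 to 577 FPKM). Markers of ensheathing cells, meninges, sensory neurons and vessels rose in 4 of 4, 5 of 5, 4 of 4 and 5 of 5 cases, with medians of 1.02, 0.91, 0.92 and 0.73. Their summed levels were 2397 to 2725 against 1101 to 1268 FPKM, 135 to 155 against 67.2 to 80.4 FPKM, 740 to 872 against 360 to 525 FPKM and 318 to 356 against 178 to 185 FPKM, in the same order. All 3 oligodendrocyte precursor markers rose (median 0.32, 22.9 to 24.9 against 17.7 to 19.3 FPKM). No marker of any list was at 0 in the mean of a group, and the lowest such mean was 1.87 FPKM. The part of these shifts in the changes of Scd1, Srebf1, Cyp46a1 and the other lipid genes was not tested.

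**Figure D4:**
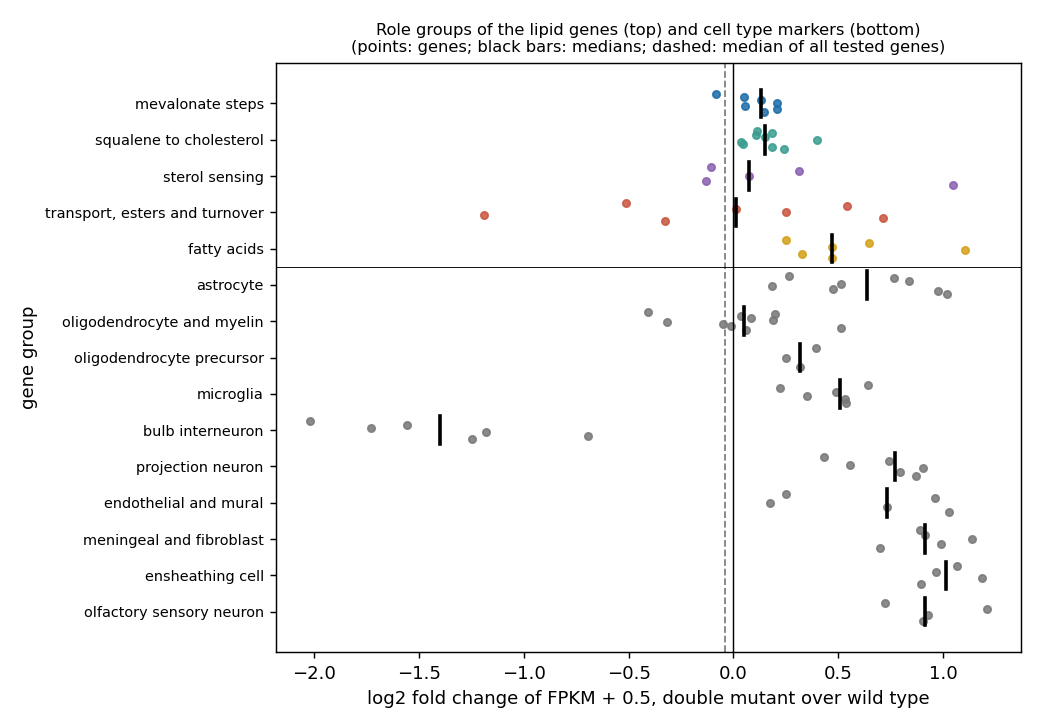
The x axis gives the log2 fold change, double mutant over wild type, of each gene as a point, and the y axis the role groups of the lipid genes above and the cell type markers below, with black bars for medians. The bulb interneuron markers lie between -2.02 and -0.70 and the astrocyte markers between 0.19 and 1.02, while the mevalonate genes lie between -0.08 and 0.21.

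Within the double mutant group, the letters differed. Both letter B libraries were above both letter A libraries for 14 of the 34 genes and below for 7, against 34.8% and 17.3% of all tested genes, so these shares (41.2% and 20.6%) lay near the background. Those above in letter B came from every role. They were 5 of the 9 genes from squalene to cholesterol (Sqle, Lss, Cyp51, Hsd17b7 and Dhcr7) and Idi1 and Fdps of the mevalonate steps. With them were 4 of the 7 transport and turnover genes (Stard4, Soat1, Nceh1 and Cyp46a1), Srebf2 and Insig2 of the control loop, and Elovl6. The 7 below were Ebp, also one of the 9 genes from squalene to cholesterol, with Apoe, Lcat, Srebf1, Insig1, Hmgcs1 and Scd1. All 10 myelin markers were above in letter B as well, with a mean summed level of 2087 FPKM against 1772 FPKM in letter A. With 2 libraries per letter the difference was not tested, nor was the part of myelin or of the difference in Xist in it.

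**Figure D5:**
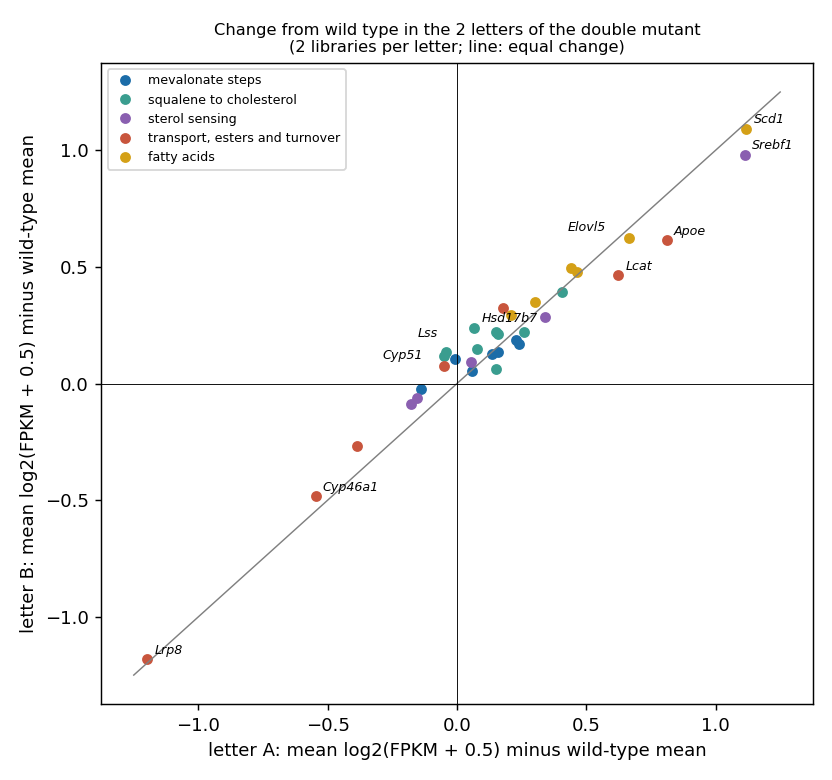
Each point is a gene, with the change from the wild-type mean in log2(FPKM + 0.5) for letter A on the x axis and for letter B on the y axis, each the mean of 2 libraries, and the line marks equal change. Lrp8, Scd1, Srebf1 and Cyp46a1 keep their direction in both letters, Apoe and Lcat lie below the line, and Lss and Cyp51 are negative in letter A and positive in letter B.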

How the data were processed

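The authors deposited FPKM values of 8 libraries in a single table. The submitters' processing notes list GRCm38.p4 as the build and, without their roles, TopHat and Cufflinks 2.1.1, while annotation, strand setting and filters are not given there. Each library has a further deposited column, a scaled signal headed as a count. Of its values 98.2% to 98.6% fell within 0.02 of a multiple of a unit step (0.736 to 1.25). The total divided by the step gave the estimated fragments, and the rest were not whole, so no count model was used.

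The 34 members, the lists and the tests were chosen with earlier results of these data known. Genes whose mean reached 0.5 FPKM were fitted as log2(FPKM + 0.5) on the group with limma 3.58.1 (variance trend, R 4.3.3), and two-sided p-values were adjusted by Benjamini-Hochberg over 14349 genes. Fold changes, on that scale, divide the double mutant by the wild type. The named genes were all members, called genes of the further list with a change of at least 0.5, and its most abundant gene. Genes of that list that fell or did not pass were added after their values were seen. A few genes of the further list are not reported here. Python 3.11.15 with pandas 2.3.3 and matplotlib 3.10.9 did the rest. The fit was tested on simulated data. Alternatives were other pseudocounts, filters, scalings and variance models, the scaled signal, blocks or means over replicate numbers and letters, and fits without each library or letter. Positions and overlaps are from GENCODE M21 (GRCm38), and 50-base words were compared on both strands of its transcripts.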

Additional observations from a re-analysis of the deposited data

Results flagged for a closer look

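In 68 sets of 4 values, a single library stood apart from the other 3 by Dixon's criterion in 2, where chance gives about 5%. Sc5d was low in double mutant replicate 1, at 16.0 FPKM against 17.5 to 17.8 FPKM in the others. Insig1 was high in double mutant replicate 1, at 21.1 FPKM against 19.6 to 19.8 FPKM. Both genes kept their call when that library was left out.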

How the results depend on the processing

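Of the 34 genes, 19 kept their direction and their side of the threshold under all 24 alternatives, 6 lost a call in at least 1 of them, and 5 changed sign in at least 1. Genes called higher were 19 in the fit described and 17 (means of the letters) to 24 (upper quartile scaling) otherwise, and those called lower were 5 in the fit described and 3 under upper quartile scaling, under quantile normalization, on the means of the letters, and without letter A or letter D. The median change was 0.24 under upper quartile scaling. With a single library left out, 17 to 19 genes were called higher and 4 to 6 lower, with a median of 0.15 to 0.18. With the replicate block, 19 were higher and 4 lower, the lost call being Insig2, and same-numbered libraries did not deviate together (correlations -0.0521 to 0.00500), so the numbers show no pairing. Sign changes concerned genes that had not passed: Fdps at 0.0024 under quantile normalization, and Idi1 at -0.0071, Lss at -0.041, Cyp51 at -0.050 and Nceh1 at -0.051 without letter B. With a double mutant library left out, Cyp51 lay between -0.0097 (without replicate 3) and 0.077, and Nceh1 between -0.012 (without replicate 4) and 0.042, with -0.0058 without replicate 3. Of the further pathway genes, 23 to 27 were called higher and 5 to 7 lower, and Mbtps1 turned to 0.013 under quantile normalization. The causes were not tested. Depth limits the genes with the fewest estimated fragments per library, Mvd (139 to 292), Ebp (145 to 269) and Mvk (167 to 307).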
